A study of Gallus gallus with 6 samples.

Results

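Hox genes were compared between sorted chick spinal cord cells that made TcfEnR, a repressor of Tcf-dependent transcription, and control cells. Of the 13009 genes read on the array by a probe set with a single symbol, 30 had a symbol beginning with HOXA, HOXB, HOXC or HOXD and a paralog number. They were 29 protein-coding Hox genes and 1 antisense RNA, HOXA10-AS. Each gene was represented by its probe set with the highest mean signal over the 6 arrays. Other Hox genes were not analysed here.

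The study examined which genes depend on Tcf/Lef factors as spinal neurons differentiate. Plasmids were introduced into the neural tube of wild-type White-Leghorn chick embryos by electroporation at embryonic day 3, and 24 h afterwards, at 4 days of incubation, GFP+ cells of the spinal cord level were sorted. Both groups received Tubb3:Cre, in which a TUBB3 enhancer and a minimal promoter drive Cre recombinase, with a floxed CAG vector that carries membrane GFP. Tubb3::CAG:control cells made GFP alone, and Tubb3::CAG:TcfEnR cells also made TcfEnR, in which the DNA-binding HMG box of Tcf3 is fused to the engrailed repressor. Each group had 3 arrays, and each array came from a separate pool of dissected neural tubes. By design GFP was to mark only electroporated cells with an active TUBB3 enhancer, and the paper reports low leakage of the vectors. Each pool mixed embryos, and TcfEnR does not tell the individual Tcf/Lef factors apart.

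Hox genes encode homeodomain transcription factors that lie side by side in the HOXA, HOXB, HOXC and HOXD clusters. Genes of low paralog number are expressed up to the hindbrain and those of higher number begin further back, so that the combination made by a cell marks its level along the body axis. In the spinal cord they assign motor neurons to columns and pools at cervical, brachial, thoracic and lumbar levels, and they act in interneurons as well. Hox proteins bind DNA with PBX, MEIS and PKNOX partners, retinoic acid, FGF and CDX factors set where the clusters open, and Polycomb and trithorax complexes keep each gene silent or active afterwards.

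The values were log2 signals in which the authors had already corrected and normalized the arrays against each other. Arrays correlated at 0.978 or more within groups and at 0.888 to 0.917 between groups, and the median signal of every array was 6.93. The upper part of the range was not the same. The 75th percentile of all probe sets was 8.46 to 8.48 on control arrays and 8.25 to 8.27 on TcfEnR arrays. The labelled tissue was set against forebrain and midbrain genes. Of 11 measured, 1 was above the median on all control arrays, PAX6, which spinal progenitors also express, and OTX2, the forebrain and midbrain homeobox gene, had a control mean of 4.07 ± 0.15 (SD, n = 3).

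Most Hox genes were on in control cells. A gene was called on in control cells when its probe set lay above the array's median on all 3 control arrays, a description that carries no detection test, since signals of different probe sets are not on one scale. By that measure 24 of the 29 Hox genes were on, against 62.8% of all genes. All 10 measured genes of paralog groups 1 to 5 were on, as were all 11 of groups 6 to 10. Of the 8 in groups 11 to 13, only HOXA11, HOXC11 and HOXD11 were on. The 5 that were not on were HOXD12 and the 4 group 13 genes, HOXA13, HOXB13, HOXC13 and HOXD13, the most posterior of their clusters. By cluster, 9 of 10 HOXA genes, 8 of 9 HOXB genes, 3 of 4 HOXC genes and 4 of 6 HOXD genes were on. The count moved to 28 when a gene was called on at 2 log2 units above the 5th percentile of signal, and to 17 with the 75th percentile as the line.

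**Figure D1:**
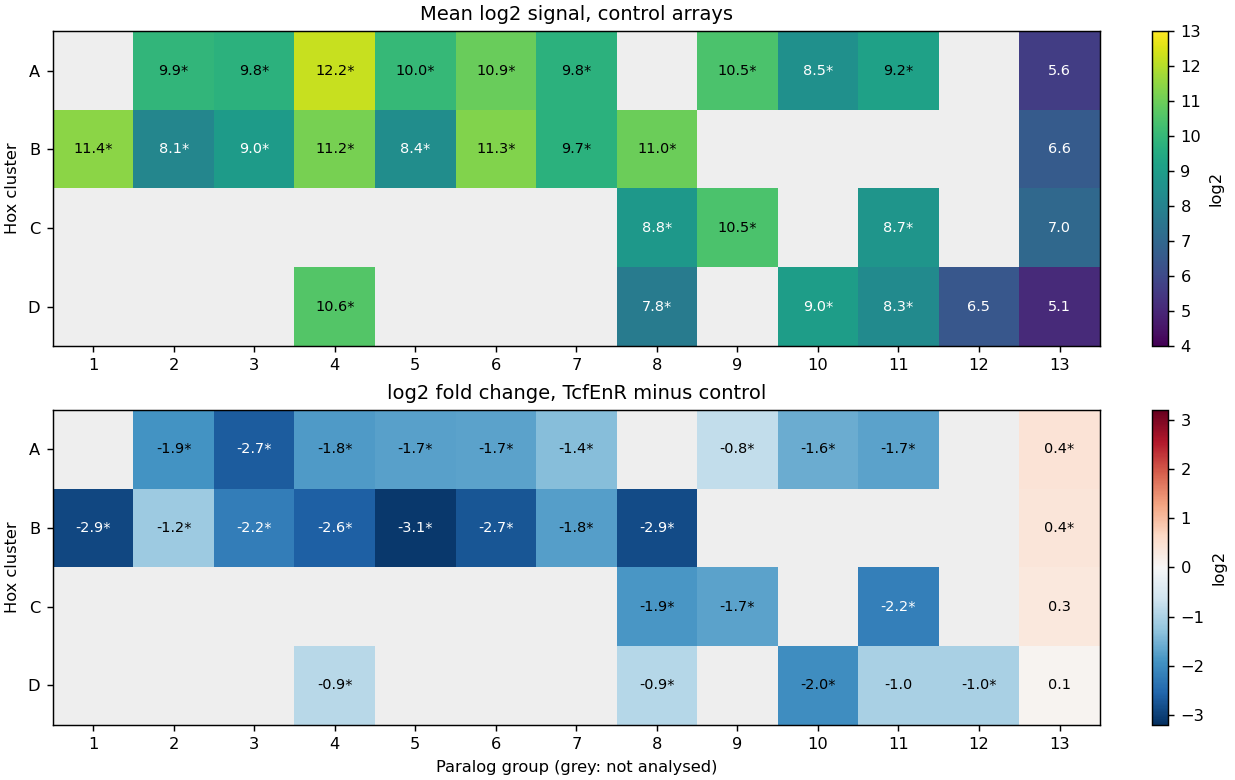
The 29 Hox genes by cluster (vertical axis) and paralog group (horizontal axis). The upper grid gives the mean log2 signal of the 3 control arrays, with an asterisk for the 24 genes on in control cells, and its colours are not comparable between genes. The lower grid gives the log2 fold change of TcfEnR against control, with an asterisk at an adjusted p of 0.05 or less. Grey squares hold no gene analysed here. Every gene analysed in groups 1 to 12 is blue, deepest in HOXB, and the group 13 squares are pale or red.

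Hox expression was lower in TcfEnR cells across all clusters. By limma, with p-values adjusted by Benjamini-Hochberg over all probe sets and a threshold of 0.05, 24 of 29 Hox genes fell, 2 rose and 3 did not pass. Over all genes 32.6% fell and 25% rose. Of the 24 Hox genes on in control cells, 23 fell and HOXD11 did not pass, where 44.6% of all genes on in control cells fell. At the median the 29 genes changed by −1.72 on the log2 scale, or 3.30-fold, beside −0.092 over all genes and −0.32 over all genes on in control cells. The 24 genes that fell had no overlap between the 3 control and the 3 TcfEnR arrays, a pattern seen for 37.3% of all genes.

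Falls past 4-fold were found in 8 Hox genes, HOXA3, HOXB1, HOXB3, HOXB4, HOXB5, HOXB6, HOXB8 and HOXC11, and the largest rise of a Hox gene was 1.35-fold. The threshold was passed downward by 3.46% of all genes, and by 4.98% of those on in control cells, and upward by 1.55% of all genes. With the mean of a gene's probe sets 6 Hox genes passed it, since HOXB1 (−1.96), HOXB6 (−1.75) and HOXC11 (−1.38) no longer did and HOXA7 (−2.05) did. Of the 24 Hox genes on in control cells, 14 still lay above the array median on all TcfEnR arrays and 10 did not. Of all genes on in control cells, 90% remained above it.

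Markers of cell types that the sort could hold were measured beside the Hox genes. Their counts stand against 32.6% of all genes that fell and 25% that rose. Among all genes on in control cells 44.6% fell. In the TcfEnR arrays 12 of 13 pan-neuronal genes fell, with a median log2 fold change of −2.28, and their mean log2 signal was 10.08 to 11.16 on control arrays and 8.25 to 8.32 on TcfEnR arrays. Motor neuron genes fell in 11 of 12 cases, with a median of −2.46, and neural progenitor genes in 15 of 16, with a median of −1.88. The progenitor mean was 9.93 to 10.54 on control arrays and 8.14 to 8.50 on TcfEnR arrays. Dorsal and ventral interneuron genes fell in 6 of 16 cases, near the share over all genes, and rose in 2, with a median of −0.17. Their mean signal was 6.59 to 7.47 on control arrays and 6.66 to 6.73 on TcfEnR arrays. Neural crest and dorsal root ganglion genes fell in 6 of 9 cases and rose in 1, with a median of −1.43. Their mean was 9.05 to 9.25 on control arrays and 7.83 to 7.93 on TcfEnR arrays. Blood genes went the other way, with 7 of 12 higher and a mean of 7.18 to 7.52 on control arrays and 7.49 to 8.88 on TcfEnR arrays. Endothelium genes fell in 1 of 12 cases and rose in 3, with a median of 0.23. Fewer cells of a type and less RNA per cell cannot be told apart in bulk samples, and the part of these markers in the Hox result was not tested.

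**Figure D2:**
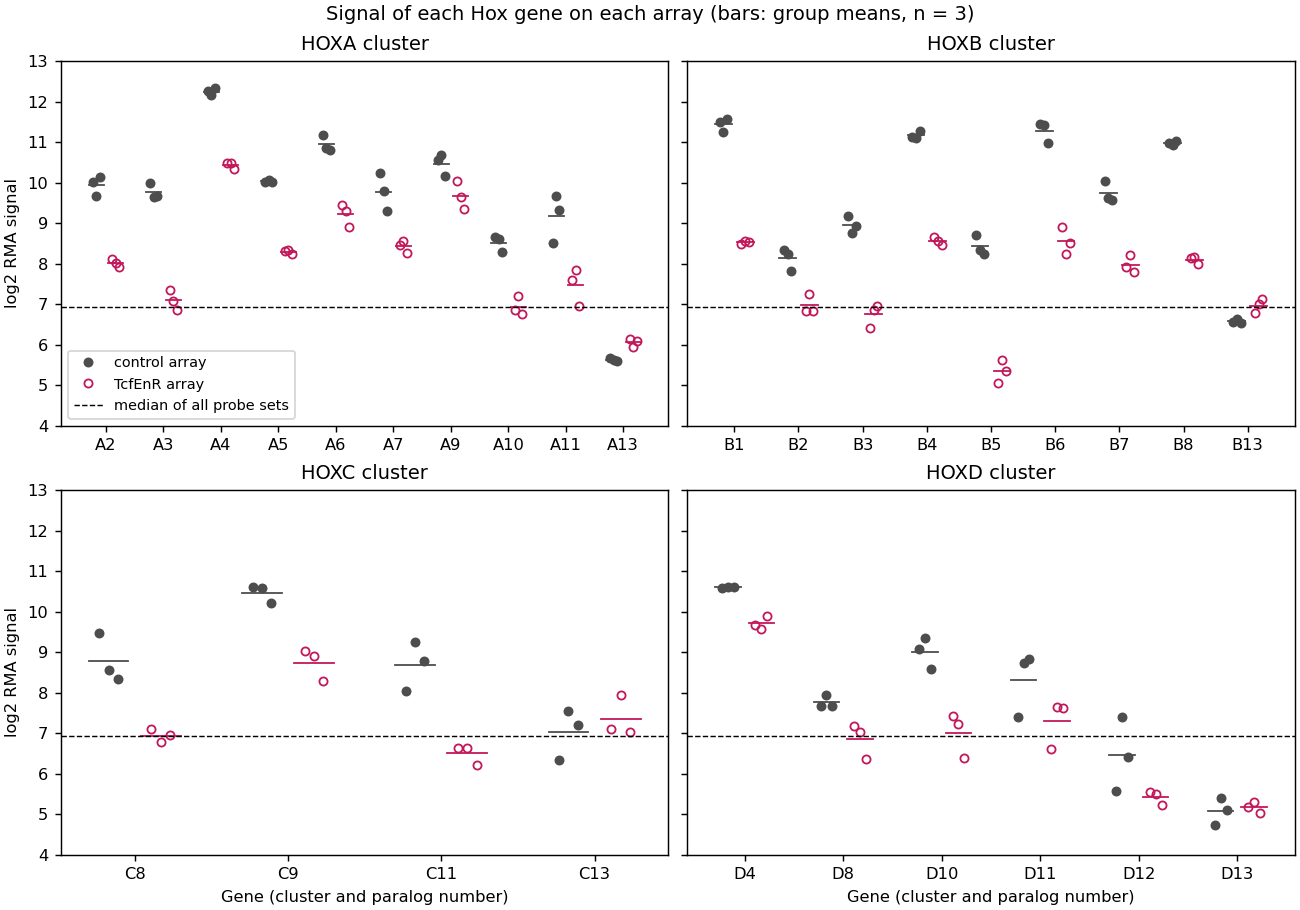
Log2 signal (vertical axis) of each Hox gene on each array, by cluster and in paralog order (horizontal axis). Filled grey points are control arrays, open pink points are TcfEnR arrays, bars are group means (n = 3) and the dashed line is the median of all probe sets. The groups are apart for 26 of the 29 genes, with TcfEnR lower in 24 of them.

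The HOXB cluster held 6 of the 8 falls past 4-fold. Its median log2 fold change was −2.61 over 9 genes, beside −1.71 for 10 HOXA genes, −1.78 for 4 HOXC genes and −0.96 for 6 HOXD genes. The difference between clusters was not tested. The clusters were not sampled alike along the body axis, since HOXB contributed a single gene beyond paralog group 8 and HOXD contributed 4 of its 6 from groups 10 to 13.

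HOXB5, which is expressed in the caudal hindbrain and the spinal cord, had the deepest fall. Its log2 signals were 8.71, 8.33 and 8.24 on control arrays and 5.05, 5.63 and 5.34 on TcfEnR arrays. It went from above the array median in every control pool to well below it in every TcfEnR pool, a log2 fold change of −3.09 ± 0.19 (SE, limma adjusted p = 6.4e-06), or 8.49-fold.

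HOXB1, whose best known role is in the fourth rhombomere of the hindbrain, gave 11.49, 11.26 and 11.58 in control pools and 8.48, 8.56 and 8.53 in TcfEnR pools. The TcfEnR pools were close to each other and far under every control pool, and the change was −2.91 ± 0.14 (SE, adjusted p = 2.89e-06, limma). HOXB8, a gene of the brachial and thoracic cord, gave 10.99, 10.92 and 11.02 against 8.15, 8.17 and 7.99. It was even between control pools and fell by 2.87 on the log2 scale (SE 0.13, limma adjusted p = 2.59e-06), or 7.33-fold.

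HOXB6 gave 11.44, 11.43 and 10.99 in control pools and 8.90, 8.25 and 8.50 in TcfEnR pools, a change of −2.74 ± 0.20 (SE, limma adjusted p = 1.45e-05). HOXB4, a gene of the cervical cord and caudal hindbrain, gave 11.12, 11.11 and 11.27 against 8.67, 8.55 and 8.46, a change of −2.61 ± 0.13 (SE, limma adjusted p = 3.11e-06). Both stayed above the array median in all TcfEnR pools despite falls of 6.66-fold and 6.10-fold. HOXB3 gave 9.18, 8.75 and 8.93 against 6.42, 6.87 and 6.96, which took it from clearly above the array median to around that median or below it, and its change was −2.21 ± 0.18 (SE, limma adjusted p = 2.61e-05). Its other probe set fell further, by 3.57 on the log2 scale. The gene models of HOXB3, HOXB4, HOXB5 and HOXB6 overlap in the RefSeq table, as do those of HOXA3 with HOXA4, HOXA5 and HOXA6, so that a probe set may read more than 1 of them.

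HOXB7 fell by 1.77 (SE 0.17, adjusted p = 6.65e-05) and HOXB2 by 1.15 (SE 0.18, adjusted p = 0.000821) on the log2 scale in limma. HOXB7, which is expressed in the brachial and thoracic cord, gave 10.04, 9.61 and 9.58 in control pools and 7.92, 8.21 and 7.79 in TcfEnR pools, and its second probe set fell by 1.29. HOXB2, which acts in hindbrain segments and their motor neurons, gave 8.33, 8.24 and 7.82 in control pools and 6.84, 7.25 and 6.84 in TcfEnR pools. Its change was the smallest among the 8 HOXB genes on in control cells, with every TcfEnR pool still below every control pool.

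In the HOXA cluster the fall was deepest at HOXA3, which patterns the caudal hindbrain and pharyngeal arches. It gave 9.99, 9.65 and 9.68 in control pools and 7.36, 7.09 and 6.86 in TcfEnR pools, a change of −2.67 ± 0.17 (SE, limma adjusted p = 7.59e-06), or 6.36-fold. Its second probe set gave −2.61. By their brightest probe sets HOXA2, HOXA4, HOXA5 and HOXA6 fell by a narrower range, from −1.72 for HOXA6 to −1.92 for HOXA2. Their adjusted p ran from 1.18e-05 to 8.99e-05 in limma. The second probe sets reversed these ends, at −2.05 for HOXA6 and −1.45 for HOXA2. HOXA2, which specifies the second rhombomere and the second pharyngeal arch, gave 10.01, 9.66 and 10.15 in control pools and 8.11, 8.02 and 7.93 in TcfEnR pools. HOXA4 gave 12.26, 12.16 and 12.32 against 10.48, 10.48 and 10.34. HOXA5, which acts in cervical motor neurons such as those of the phrenic nerve, gave 10.01, 10.06 and 10.03 against 8.30, 8.34 and 8.23, and was the most even of these 4 within each group. HOXA6 was the least even in TcfEnR pools, with 11.18, 10.86 and 10.80 against 9.46, 9.31 and 8.90. All 4 remained above the array median in every TcfEnR pool.

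The posterior HOXA genes fell less evenly. HOXA7 changed by −1.35 ± 0.23 (SE, limma adjusted p = 0.00113) by its brightest probe set, and its other 3 probe sets gave −1.98 to −2.69. Its signals were 10.25, 9.79 and 9.29 in control pools and 8.47, 8.56 and 8.26 in TcfEnR pools, and the spread of nearly 1 log2 unit was among the controls. HOXA10, a lumbar gene that assigns limb motor neurons, gave 8.66, 8.62 and 8.28 against 6.86, 7.20 and 6.76 and came down to about the array median, a change of −1.58 ± 0.17 (SE, limma adjusted p = 9.88e-05). Of its other 3 probe sets 1 fell, by 0.49, and 2 did not pass, at −0.14 and −0.40. HOXA9 had the smallest change of any Hox gene on in control cells. It gave 10.56, 10.67 and 10.16 in control pools and 10.03, 9.64 and 9.36 in TcfEnR pools, so that only 0.13 on the log2 scale parted the lowest control pool from the highest TcfEnR pool, and the change was −0.79 ± 0.20 (SE, limma adjusted p = 0.0107). With quantile normalization repeated over the arrays it no longer passed, at −0.48 and an adjusted p of 0.0788 in limma. The second and dimmer HOXA9 probe set gave −0.28 and did not pass (limma adjusted p = 0.154).

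All 3 HOXC genes on in control cells fell. HOXC8 and HOXC9, of which HOXC9 separates limb-level from thoracic motor columns, changed by −1.85 ± 0.27 and −1.72 ± 0.21 (SE, limma adjusted p = 0.000495 and 0.000221). HOXC8 was uneven between control pools, at 9.47, 8.57 and 8.34, and even between TcfEnR pools, at 7.10, 6.78 and 6.94. HOXC9 gave 10.60, 10.57 and 10.20 against 9.03, 8.91 and 8.28 and was the only HOXC gene on in both groups. HOXC11, a lumbar gene, gave 8.05, 9.25 and 8.78 against 6.65, 6.65 and 6.23, and every TcfEnR pool was more than 1 log2 unit below the lowest control pool. Its change was −2.19 ± 0.28 (SE, limma adjusted p = 0.000257), or 4.55-fold. Its dimmer probe sets changed less, at −1.20 (adjusted p = 0.0275) and at −0.76 without passing (adjusted p = 0.0986).

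The HOXD cluster had no fall past 4-fold. HOXD10, which with HOXA10 and its neighbours sets lumbar motor neuron identity, came nearest at −1.98 ± 0.28 (SE, limma adjusted p = 0.000476), or 3.95-fold, with 9.07, 9.34 and 8.59 in control pools and 7.42, 7.24 and 6.39 in TcfEnR pools. HOXD4 was the most even Hox gene between control pools, at 10.59, 10.60 and 10.62, and gave 9.68, 9.56 and 9.89 in TcfEnR pools. Its fall was small but clear of the spread, at −0.90 ± 0.13 (SE, limma adjusted p = 0.000619). Its other probe set, whose name marks probes shared between transcripts of the same gene, gave −0.050 and did not pass (limma adjusted p = 0.775).

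HOXD8 gave 7.67, 7.95 and 7.66 in control pools and 7.17, 7.03 and 6.37 in TcfEnR pools, a change of −0.90 ± 0.21 (SE, limma adjusted p = 0.00662). Its second probe set gave +0.37 without passing, and with the mean of both the gene no longer passed, at −0.27 and an adjusted p of 0.234. HOXD11 gave 7.39, 8.73 and 8.82 against 6.62, 7.64 and 7.61. The groups overlapped, since control replicate 1 lay below the highest TcfEnR pool, and the change of −1.03 ± 0.40 had an adjusted p of 0.0561 in limma, with an interval of −1.93 to −0.12. Without control replicate 1 it was −1.49 with an adjusted p of 0.003. With any other single array left out it did not pass in limma, at −0.69 to −1.20 and adjusted p of 0.0715 to 0.195. HOXD12 was on neither in control nor in TcfEnR cells, with 5.57, 7.41 and 6.40 against 5.55, 5.49 and 5.23. Its change was −1.03 ± 0.38 (SE, limma adjusted p = 0.0455), control replicate 1 lay only 0.012 above the highest TcfEnR pool, and without control replicate 2 the change was −0.56 with an adjusted p of 0.103.

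Group 13 patterns the tail, the digits and the urogenital tract. None of its 4 genes was on in control cells, and none had a lower mean in TcfEnR cells. HOXA13 gave 5.67, 5.63 and 5.60 in control pools and 6.14, 5.94 and 6.10 in TcfEnR pools, and HOXB13 gave 6.57, 6.64 and 6.53 against 6.78, 6.99 and 7.12. Both rose without overlap, by 0.43 ± 0.13 and 0.38 ± 0.14 on the log2 scale (SE, limma adjusted p = 0.0175 and 0.0409), or 1.35-fold and 1.31-fold. Rises without overlap were seen for 28.8% of all genes and for 48.9% of those not on in control cells. Among all genes not on in control cells 43% rose, and their median log2 fold change was 0.33. HOXB13 no longer passed when any of 5 single arrays was left out, with adjusted p of 0.0665 to 0.131, and HOXA13 did not pass without TcfEnR replicate 1 (adjusted p = 0.0669) or replicate 3 (0.0529). HOXC13 changed by 0.33 (95% interval −0.42 to 1.08, adjusted p = 0.43) and HOXD13 by 0.092 (interval −0.33 to 0.51, adjusted p = 0.7), and neither passed in limma. HOXC13 gave 6.33, 7.55 and 7.20 in control pools and 7.11, 7.93 and 7.02 in TcfEnR pools. It lay above the array median on all TcfEnR arrays, and among control arrays it missed that line only in replicate 1.

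Along the paralog series, the median log2 fold change was −2.06 for the 10 genes of groups 1 to 5, −1.72 for the 11 of groups 6 to 10 and −0.47 for the 8 of groups 11 to 13. The last value joins group 11, with a median of −1.70 over 3 genes, to group 13, with 0.36 over 4. The difference between these ranges was not tested. The median signal over the genes of groups 1 to 5 was 10.01, 9.86 and 10.09 on control arrays and 8.21, 8.18 and 8.08 on TcfEnR arrays. For groups 6 to 10 it was 10.25, 9.79 and 9.58 against 8.15, 8.21 and 7.99. In both ranges the control pools stood clear of the TcfEnR pools.

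The control pools differed among themselves most over paralog groups 11 to 13, but not in every gene there. The range over the control arrays had a median of 1.20 in group 11 and 0.40 in group 13, and was 1.84 for HOXD12. Within group 13, HOXC13 had a range of 1.23, whereas HOXA13 and HOXB13 were even, at 0.070 and 0.11. The range over the 3 control arrays had a median of 0.33 on the log2 scale in groups 1 to 5, 0.45 in groups 6 to 10 and 1.19 in groups 11 to 13, beside 0.37 over all genes. The median signal of groups 11 to 13 was 6.45, 7.48 and 6.86 on control arrays and 6.63, 6.82 and 6.60 on TcfEnR arrays, so that here the groups overlapped. Control replicate 1 was the lowest control array for 6 of the 8 genes of groups 11 to 13 and for 2 of the 21 genes of groups 1 to 10. Control replicate 2 was the highest for 6 of the 8 and for 4 of the 21, and in groups 1 to 10 control replicate 1 was the highest for 11. Mesenchyme and somite genes, which also use posterior Hox genes, had a mean signal of 6.68, 7.35 and 6.14 in the control pools. Control replicate 2 was the highest and control replicate 3 the lowest. In the TcfEnR pools the mean was 6.55, 6.38 and 6.31. Of these 19 genes 3 fell and 3 rose, where 32.6% of all genes fell and 25% rose. The part of mesenchyme and somite genes in the posterior Hox values was not tested. Other lists also differed between control replicates 1, 2 and 3. Pan-neuronal genes had a mean signal of 11.16, 10.80 and 10.08, motor neuron genes 9.63, 9.19 and 8.48, and neural progenitor genes 9.93, 10.11 and 10.54. Endothelium genes gave 6.92, 7.12 and 6.43, and neural crest and dorsal root ganglion genes 9.13, 9.25 and 9.05. Both had the same order of control pools as mesenchyme and somite genes. How these stand to the Hox values of the same pools was not tested.

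**Figure D3:**
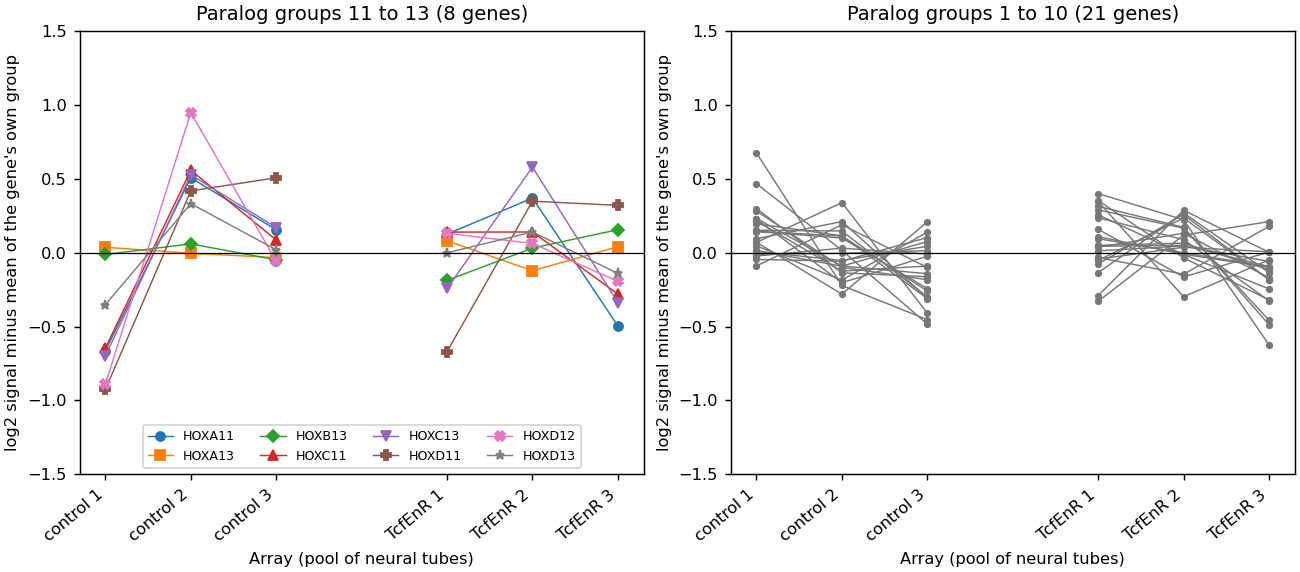
Log2 signal of each Hox gene minus the mean of the same gene in its own group (vertical axis) on each array (horizontal axis), for the 8 genes of paralog groups 11 to 13 at left and the 21 of groups 1 to 10 at right. Each line is a gene within a group. Control replicate 1 is the lowest control array for 6 of the 8 posterior genes, whereas it is the lowest for 2 of the 21 others.

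HOXA10-AS, a transcript annotated opposite to HOXA10, fell with its cluster. It gave 9.69, 9.43 and 9.64 in control pools and 7.08, 7.18 and 6.83 in TcfEnR pools, which brought it to the array median. The change was −2.56 ± 0.15 (SE, limma adjusted p = 5.13e-06), or 5.90-fold, and its second probe set gave −1.60. Its model overlaps those of HOXA9 and HOXA10 in the RefSeq table, and how far these probe sets read each strand was not tested.

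The other probe sets of the Hox genes were examined in the same way. There were 59 single-symbol probe sets for the 29 genes, of which 43 fell, 4 rose and 12 did not pass in limma. Counted by gene, with the brightest probe set of each, 32.6% of all genes fell and 25% rose. The share over all single-symbol probe sets was not counted. Of 17 genes with several probe sets, 8 fell with all of them. Probe sets of HOXA11, HOXB1, HOXB6 and HOXD8 differed in sign. HOXA11, a lumbar and limb gene, gave 8.50, 9.67 and 9.32 against 7.59, 7.83 and 6.97 with its brightest probe set, a change of −1.70 ± 0.31 (SE, adjusted p = 0.00182). Of its other 4 probe sets 3 fell, and the remaining one gave +0.21 (adjusted p = 0.191). For HOXB1, 4 probe sets gave −2.02 to −2.91, and the remaining one, whose name marks probes that may match unrelated sequences, rose by 0.40. For HOXB6, 2 probe sets gave −2.74 and −3.08, and the third and dimmest rose by 0.57. The brightest probe sets of HOXA5 and HOXB6 were named as antisense designs, and their sense-named partners gave −1.79 and −3.08. Name suffixes that mark shared probes were not confined to probe sets that disagreed, and they were not all of the same kind. The partner of HOXA5 and the brightest probe sets of HOXA7, HOXA10 and HOXA11 ended in _s_at. The partner of HOXB6 ended in _a_at, and the HOXB1 probe set that rose ended in _x_at. What each of these probe sets matches was not tested. A probe set assigned to HOXD10 and HOXD8 together gave −1.69.

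**Figure D4:**
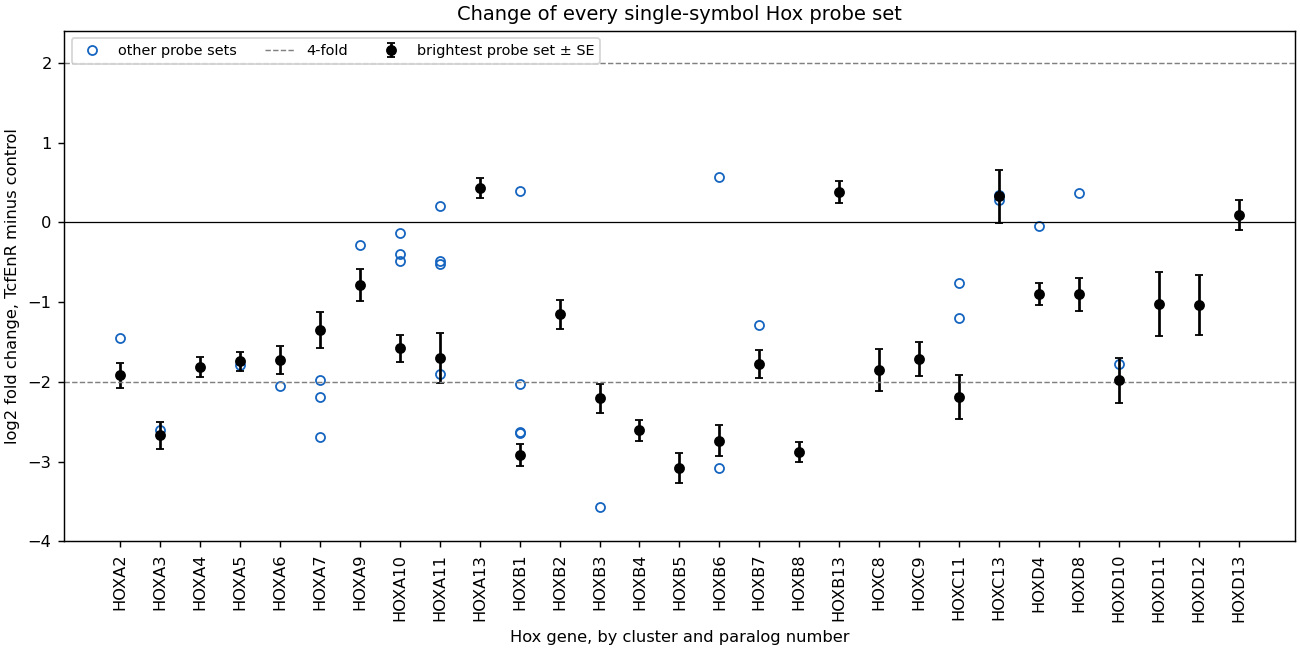
Log2 fold change of TcfEnR against control (vertical axis) for each of the 59 single-symbol Hox probe sets, by gene (horizontal axis). Filled points with bars are the brightest probe set of a gene ± SE, open blue points are its other probe sets, and dashed lines mark 4-fold. Of the 17 genes with several probe sets, 13 have all of them on the same side of 0, and those of HOXA11, HOXB1, HOXB6 and HOXD8 lie on both.

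The genes through which Hox proteins act and are controlled were described from lists, as counts beside the background of all genes (32.6% lower, 25% higher). Of all genes on in control cells 44.6% fell, with a median of −0.32. On in control cells were 6 of 6 cofactors, 10 of 16 upstream regulators, 16 of 20 Polycomb and trithorax genes and 12 of 19 neighbours. Among 6 measured Hox cofactors 3 fell and 1 rose, with a median log2 fold change of −0.46. MEIS2 and MEIS1, homeodomain partners that hold Hox and PBX proteins on DNA, fell furthest. MEIS2 gave 11.14, 10.86 and 10.62 in control pools and 8.17, 8.05 and 8.02 in TcfEnR pools, a change of −2.79 ± 0.16 (SE, limma adjusted p = 4.85e-06). MEIS1 changed by −1.59 ± 0.12 (SE, adjusted p = 2.05e-05). PKNOX1 fell by 0.39 on the log2 scale, whereas its relative PKNOX2 rose by 1.19 ± 0.16 (SE, adjusted p = 0.000395). PBX3 and PBX4 changed by −0.54 and −0.22 and did not pass (limma).

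Of 16 measured upstream regulators 6 fell and 4 rose, with a median of 0.027. Of the 6 that make, degrade or bind retinoic acid 3 fell, 1 rose and 2 did not pass. RARB, a retinoic acid receptor that is itself a target of the pathway, changed by −2.25 ± 0.17 (SE, limma adjusted p = 1.64e-05). ALDH1A2, the retinoic acid synthesising enzyme, which limb-level motor neurons also make, gave 9.75, 9.01 and 8.30 in control pools and 7.27, 6.75 and 6.71 in TcfEnR pools. Its TcfEnR pools were all lower than its uneven control pools, and the change was −2.11 ± 0.33 (SE, adjusted p = 0.000734). CYP26A1, which degrades retinoic acid, fell by 1.34, and its relative CYP26C1 rose by 0.47 (SE 0.15, adjusted p = 0.0291). CYP26B1 changed by 0.40 and RARA by 0.079 without passing (adjusted p = 0.0682 and 0.612). LIN28A and LIN28B, RNA-binding proteins of early embryonic cells, fell by 1.43 and 1.40. CDX1, a caudal-type homeodomain gene that activates Hox clusters, rose by 1.84 ± 0.16 (SE, adjusted p = 3.31e-05) from a control mean of 4.86, a dim signal. CDX2 and FGF8, neither of them on in control cells, rose by 0.43 and 0.49 (limma adjusted p = 0.0453 and 0.0492). CDX4 changed by −0.025 without passing.

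Polycomb and trithorax genes fell in 10 of 20 cases and rose in 3, with a median of −0.39. EZH2, the methyltransferase of Polycomb repressive complex 2, which cycling progenitors make in quantity, fell by 2.16 on the log2 scale (SE 0.16, limma adjusted p = 1.48e-05). RNF2, the ubiquitin ligase of Polycomb repressive complex 1, and the histone-binding RBBP7 fell by 1.28 and 1.22. The 3 that rose were the chromobox genes CBX8, CBX7 and CBX2, by 0.75, 0.60 and 0.38. KMT2A, the trithorax-group methyltransferase that maintains Hox expression, fell by 0.54, and EZH1 changed by −0.24 without passing.

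Genes from a fixed list of Hox cluster neighbours were used to set the clusters against their surroundings, a difference that was not tested. Their places beside the clusters were not read from gene positions here. Of 19 measured neighbours 8 fell and 3 rose, the median was −0.18, and the largest falls were those of CBX1 and SNF8 beside HOXB, by 0.99 and 0.97, and SKAP2 beside HOXA fell by 0.94. SNX10 beside HOXA rose by 1.34 and SKAP1 beside HOXB by 0.72. EVX1 and EVX2, the even-skipped homeobox genes at the posterior ends of HOXA and HOXD, changed by −0.15 and −0.18 and did not pass (limma adjusted p = 0.611 and 0.476).

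**Figure D5:**
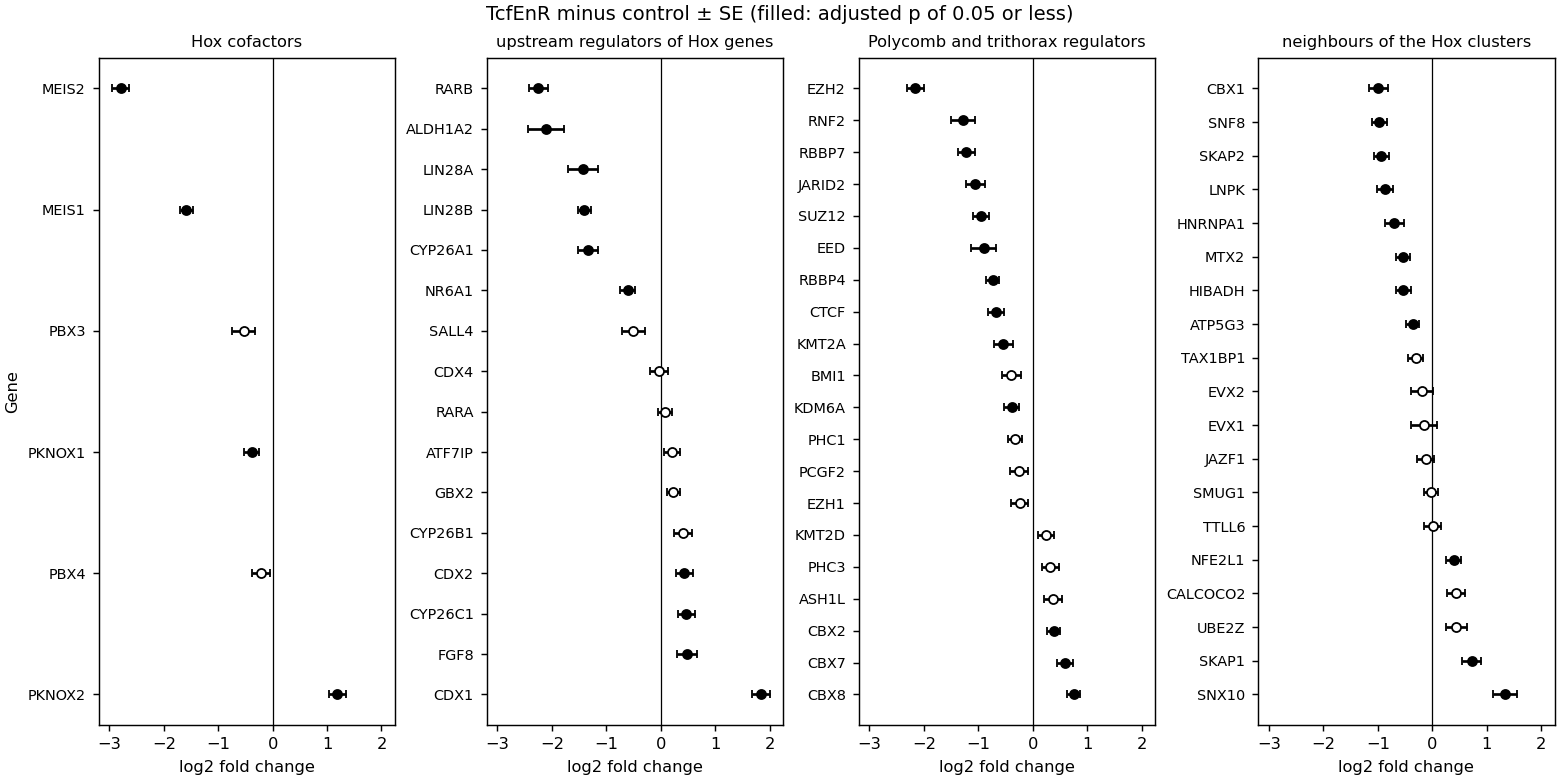
Log2 fold change of TcfEnR against control ± SE (horizontal axis) for each measured Hox cofactor, upstream regulator, Polycomb or trithorax gene and cluster neighbour (vertical axis), filled where the limma adjusted p was 0.05 or less. MEIS2, RARB, EZH2 and ALDH1A2 lie beyond −2, and the cluster neighbours lie between −0.99 and 1.34.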

How the data were processed

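GFP+ cells of 3 control and 3 TcfEnR pools were hybridized to Affymetrix GeneChip Chicken Genome Arrays after amplification. The authors deposited log2 values made by RMA (background correction, quantile normalization and summary of probes), whose version is not given in the sources used here, and no further normalization was applied. All value columns were used, and no array was a copy of another. Arrays give no read depth, and their number limits the precision. The file held 38535 probe sets, of which 96 Affymetrix controls were left out. Probe sets were named from the platform annotation. Overlaps of gene models were read from positions in the RefSeq table. Cluster neighbours came from a fixed list of gene symbols.

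TcfEnR minus control was fitted with limma 3.58.1 in R 4.3.3 (lmFit and eBayes, no block), adjusted by Benjamini-Hochberg over 38439 probe sets at 0.05, and 4-fold was counted beside it. SE is the moderated standard error, and intervals are at 95%. The labels call the samples biological replicates but do not say that same-numbered pools belong together. The procedure was tested on simulated data in which only a small part of the probe sets changed, unlike here, so that test does not cover this setting. By rule, values per array were given for Hox genes past 4-fold, the 8 deepest falls, the largest rises, the 5 smallest changes among genes on in control cells and genes whose probe sets differ in sign, and up to 3 changed genes were named per list. The values per array of the other Hox genes and of HOXA10-AS, MEIS2 and ALDH1A2, and the further members named from the lists, lie outside that rule and were chosen after their values were seen. The Hox genes, the lists and the tests were chosen with earlier results of these data known. Alternatives were another normalization, centring, a filter on dim probe sets, the mean of probe sets, array weights, a variance trend, a replicate block and leaving out each array.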

Additional observations from a re-analysis of the deposited data

Results flagged for a closer look

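Probe sets of the Hox genes outside the comparison, which used the brightest probe set of each gene, held signals that rose in TcfEnR cells against the direction of their gene. The fifth probe set of HOXB1 gave 8.26, 8.34 and 8.62 in control pools and 8.81, 8.86 and 8.74 in TcfEnR pools, a rise of 0.40 ± 0.14 (SE, limma adjusted p = 0.0378). Its name marks probes that may match unrelated sequences. The third probe set of HOXB6 gave 6.31, 6.74 and 6.87 against 7.32, 7.08 and 7.22, a rise of 0.57 ± 0.17 (SE, limma adjusted p = 0.0196). In both probe sets all TcfEnR pools lay above all control pools. Counted by gene with the brightest probe set of each, 28.8% of all genes rose without overlap and 25% rose in limma. Among genes not on in control cells these shares were 48.9% and 43%. The HOXB6 probe set lay below the array median on all control arrays.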

How the results depend on the processing

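The number of Hox genes that fell was 23 to 25 in all alternatives, against 24, and the number past 4-fold was 6 to 10, against 8. The median log2 fold change was −1.48 with quantile normalization repeated, when the median of all genes moved from −0.092 to 0.026, and −1.56 to −1.78 with an array left out. The number of Hox genes that rose, 2, was 1 with quantile normalization repeated, with array weights and with a variance trend, and 0 to 1 with an array left out. Among the 61 cofactors, regulators and neighbours the 11 that rose became 6 to 10 with an array left out. They became 14 with quantile normalization repeated and 13 with array weights or with the mean of probe sets. The 27 that fell became 20 with quantile normalization repeated, 22 with the mean of probe sets and 28 with array weights. HOXD13 was −0.039 with quantile normalization repeated and ran from −0.084 (without control replicate 1) to 0.26 with an array left out, and HOXC13 ran from −0.020 (without control replicate 1) to 0.59. Neither passed in any setting, and the cause was not tested. With the replicate number as a block 25 Hox genes fell and 1 rose, HOXB13 lost its call (adjusted p = 0.0666), HOXD11 gained one (0.00193), and 7 of the 61 rose. Deviations of same-numbered arrays correlated at −0.042, 0.016 and −0.055 over all probe sets. With 3 arrays per group these values cannot show whether same-numbered pools were handled together, and the labels do not say. HOXD12 did not pass without any one of 5 arrays (adjusted p = 0.0551 to 0.13), and HOXD11 passed with dim probe sets left out (0.0485) and with array weights (0.0217). HOXD11 did not pass with quantile normalization repeated (limma adjusted p = 0.0848) or with a variance trend (0.0507).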
